A study of Homo sapiens with 2 samples.

Results

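The guanylin, CFTR and colon ion secretion genes are 9 of the 36601 genes listed in the count matrices: GUCA2A, GUCA2B, GUCY2C, CFTR, CA1, CA2, CA4, AQP8 and KCNQ1, chosen by symbol. Their levels were described in the epithelial cells of 2 single-cell RNA sequencing libraries, 943 of 3257 CNT barcodes and 717 of 1641 3CK barcodes. A barcode counted as an epithelial cell with at least 10000 unique molecular identifiers (UMIs, each standing for 1 captured RNA molecule), at least 2 EPCAM UMIs per 10000, and under 5 UMIs per 10000 from the collagen genes COL1A1, COL1A2 and COL3A1 together. The 2 cultures were organoids of colon, derived from the established human iPS (induced pluripotent stem) line 1383D6. For 8 days the 3CK culture received TNF-α and IL-1β with IFN-γ, which are inflammatory cytokines, and the CNT culture received none of them, in work whose title names a model of ulcerative colitis. For both cultures the growth protocol lists 30 µM forskolin, a direct activator of adenylyl cyclase, among the additives of the colonic medium. Its text ends within that list, and the sources used here do not give whether forskolin was present during the 8 days. Each group is 1 library from 1 cell line. No test between groups was possible, and every interval below is a 95% interval that covers counting error only.

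GUCA2A encodes guanylin and GUCA2B uroguanylin, small peptides that gut epithelial cells secrete into the lumen. Both bind GUCY2C, a receptor on the apical membrane that makes cGMP. Kinases downstream of cGMP and cAMP phosphorylate CFTR, an apical channel that lets chloride and bicarbonate out of the cell. Carbonic anhydrases supply the bicarbonate, KCNQ1 with its partner subunits lets potassium leave at the basolateral side and so keeps the driving force for chloride exit, and aquaporins carry water. Guanylin, CA1, CA2, CA4 and AQP8 are well known as products of surface colonocytes.

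On GRCh38, with GENCODE version 44 matched by gene ID, the ligand genes are neighbours on chromosome 1. GUCA2B lies at chr1:42153410-42155820 on the plus strand and GUCA2A at chr1:42162690-42164745 on the minus strand, 6869 bases apart. GUCY2C lies at chr12:14612632-14696599 (minus strand) and CFTR at chr7:117287120-117715971 (plus strand). CA4 lies at chr17:60149942-60170899, AQP8 at chr16:25215731-25228932 and KCNQ1 at chr11:2444654-2849105, all on the plus strand. All of the 9 are protein-coding genes, and the UMIs were counted per gene, with no exon or transcript given.

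The 250 bases before the RefSeq start (GRCh38.p14, 5′ to 3′ on the gene's strand) are shown for the ligand genes, whose levels were both lower in the 3CK library, and for CFTR, whose level was not. Capitals mark matches to the motifs searched on both strands.
GUCA2A, chr1:42164746-42164995, minus strand: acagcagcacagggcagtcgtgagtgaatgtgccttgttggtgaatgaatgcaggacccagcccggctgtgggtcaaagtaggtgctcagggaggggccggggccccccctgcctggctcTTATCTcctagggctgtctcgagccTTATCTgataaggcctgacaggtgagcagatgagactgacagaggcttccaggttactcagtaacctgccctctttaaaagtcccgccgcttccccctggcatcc
GUCA2B, chr1:42153160-42153409, plus strand: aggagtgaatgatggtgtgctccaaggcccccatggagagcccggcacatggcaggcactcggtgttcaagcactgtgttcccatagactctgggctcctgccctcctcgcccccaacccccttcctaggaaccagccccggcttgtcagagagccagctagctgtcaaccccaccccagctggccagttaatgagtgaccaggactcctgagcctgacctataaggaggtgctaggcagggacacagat
CFTR, chr7:117479775-117480024, plus strand: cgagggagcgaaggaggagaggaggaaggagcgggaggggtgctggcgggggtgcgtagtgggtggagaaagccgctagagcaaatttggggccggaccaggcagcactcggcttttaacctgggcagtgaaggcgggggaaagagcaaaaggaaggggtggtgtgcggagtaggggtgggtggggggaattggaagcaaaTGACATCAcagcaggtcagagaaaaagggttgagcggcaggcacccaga

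The GUCA2A stretch held 2 matches to the GATA motif AGATAA, read on the other strand as TTATCT, at 130 to 125 and 105 to 100 bases before the start. The CFTR stretch held 1 match to the cAMP response motif TGACNTCA at 49 to 42, and the GUCA2B stretch no match to any motif searched. Among 35116 promoter stretches of the same length, 9.17% held the GATA motif and 6.87% the cAMP response motif. The CDX motif TTTATG (9.64% of stretches), the NF-κB motif (1.4%) and the STAT motif TTCNNNGAA (6.57%) had no match in these 3 stretches. A match says only that these letters are present. The ligand genes differed in their matches, and a link between matches and levels was not tested. The CFTR stretch starts from RefSeq's shorter gene model and lies inside the GENCODE span.

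The epithelial cells held 68374274 UMIs in CNT (median 68469 per cell) and 68058536 in 3CK (median 93963), so the summed depths were alike while the cells of 3CK were deeper. Levels are UMI counts summed over the cells and scaled to a common total (CPM), and 3 UMIs correspond to 0.0439 CPM in CNT and 0.0441 in 3CK. All 8 epithelial markers were present in both libraries, but so were all 8 hepatic markers, summing to 102137 CPM in CNT and 33256 in 3CK. The summed level of 12 markers of absorptive cells was 7694 CPM in CNT, with CEACAM7 under 1 CPM, and 2383 CPM in 3CK, with SI, SLC26A3 and MS4A12 under 1 CPM. The 8 goblet markers summed to 3425 CPM in CNT and 2258 in 3CK, with CLCA1 and SPINK4 under 1 CPM in both and MUC2 at 1.16 and 0.661 CPM. The 6 leukocyte markers summed to 91.9 and 110 CPM, with the defining markers PTPRC and CD3E under 1 CPM in both. The colon factor CDX2 stood at 81.4 CPM in CNT and 83.3 in 3CK. The cells were therefore epithelial with intestinal genes, and cells rich in a hepatic marker were a larger share of CNT: 816 of 943 cells (86.5%) had at least 100 TTR UMIs per 10000 against 367 of 717 in 3CK (51.2%). In summed counts, fewer cells expressing a gene and less RNA per cell cannot be told apart, so shares of cells are given beside the levels. No barcode was shared by the libraries.

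GUCA2A, GUCA2B, GUCY2C, CA2 and CA4 stood lower in 3CK by more than 2-fold, CA1 stood higher by more than 2-fold at a very low level, and CFTR and KCNQ1 moved by less than 2-fold. Of the 9 genes, 8 reached 1 CPM in at least 1 library and were counted (AQP8 did not, and CA1 passed only through 3CK, where it was higher). Thus 5 of 8 were past 2-fold lower and 1 of 8 past 2-fold higher. Among all 16733 genes that reached 1 CPM, 11.8% were past 2-fold lower and 8.89% past 2-fold higher, and the median log2 ratio of 3CK over CNT was 0.01, with quartiles at -0.45 and 0.39.

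**Figure D1:**
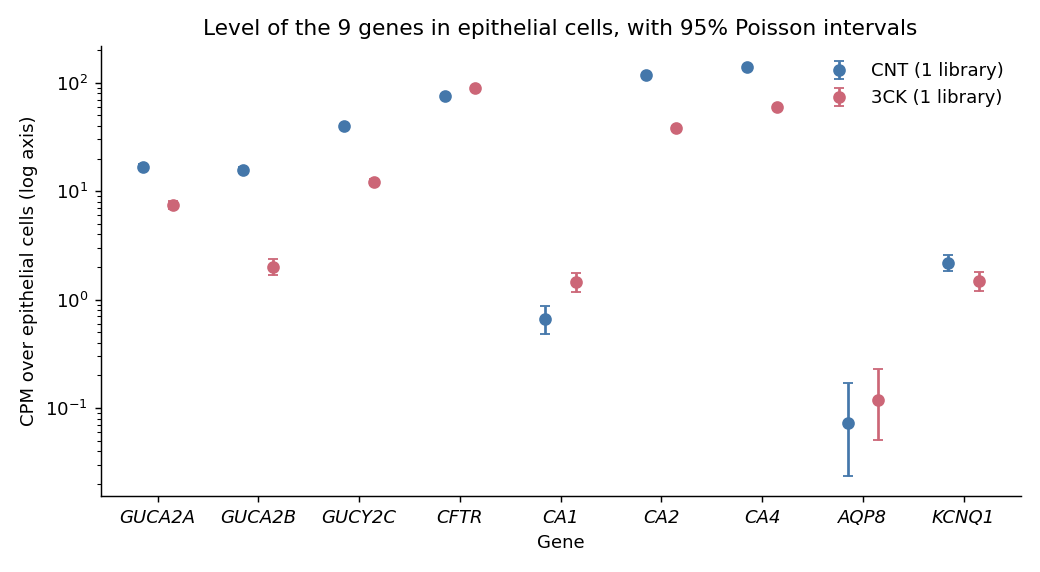
Level of each of the 9 genes in CPM (log axis) over epithelial cells of the CNT library (blue) and the 3CK library (red), with 95% Poisson intervals as bars, often smaller than the points. GUCA2A, GUCA2B, GUCY2C, CA2 and CA4 were lower in 3CK, CFTR was at 76.2 and 89.6 CPM, and AQP8 was under 1 CPM in both.

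The ligand genes were detected in few cells. GUCA2A gave 1152 UMIs in CNT, or 16.8 CPM (interval 15.9 to 17.9), and 508 UMIs in 3CK, or 7.46 CPM (6.83 to 8.14), a log2 ratio of -1.17 (-1.33 to -1.02). It was detected in 128 of 943 CNT cells and 49 of 717 3CK cells. After thinning every cell to 10000 UMIs, which left out no cell, a GUCA2A UMI was present in 4.56% of the cells in CNT (Clopper-Pearson interval 3.32% to 6.09%) and in 1.95% in 3CK (1.07% to 3.25%). The difference was -2.61 percentage points (Newcombe interval -4.32 to -0.87).

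Most guanylin RNA came from a handful of cells in each library. In CNT the 5 highest cells held 204, 179, 151, 50 and 45 GUCA2A UMIs, 54.6% of the total. In 3CK they held 248, 54, 50, 26 and 21 UMIs, 78.5% of the total, and the highest cell alone held 48.8%. Cells with very high guanylin thus existed in both libraries, and the 3CK level depended on 1 cell. Without the 5 highest cells of each library the log2 ratio was -2.26, and with every cell weighted equally it was -0.78, under 2-fold. Equal weighting kept the highest cells, so this value also depended on them. They stood at 2817 CPM in CNT, where the mean over cells was 17.0, and at 4309 CPM in 3CK, where it was 9.86.

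Uroguanylin was lower by a wider margin. GUCA2B gave 1069 UMIs in CNT, or 15.6 CPM (14.7 to 16.6), and 137 UMIs in 3CK, or 2.01 CPM (1.69 to 2.38), a log2 ratio of -2.96 (-3.22 to -2.70). Only 1.49% of tested genes had a lower ratio. The thinned share of cells with a UMI was 6.04% in CNT (4.61% to 7.76%) and 1.39% in 3CK (0.671% to 2.55%), a difference of -4.65 points (-6.47 to -2.87). The 5 highest cells held 38.3% of the CNT UMIs and 74.5% of the 3CK UMIs, with 128 and 62 UMIs in the highest cell of each. Without the 5 highest cells the log2 ratio was -4.24.

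Guanylin and uroguanylin RNA often lay in the same cells. Among thinned CNT cells, 17 held both, which is 39.5% of the cells with GUCA2A and 29.8% of those with GUCA2B, while 6.04% of all CNT cells held GUCA2B. In 3CK 5 cells held both, 35.7% of the cells with GUCA2A and 50% of those with GUCA2B. The 3CK cell with 248 GUCA2A UMIs was also the highest for GUCA2B, with 62. In CNT the cells with 179 and 151 GUCA2A UMIs held 68 and 114 of GUCA2B, but the cell with 204 held 3. The 5 highest cells of either ligand and library held at most 6 UMIs of the receptor gene GUCY2C. Among thinned CNT cells, GUCY2C was present in 32.6% of the cells with GUCA2A and 24.6% of those with GUCA2B, against 30.2% of all. In 3CK it was present in 1 of 14 and 1 of 10 cells, against 12.3% of all.

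In the human colon both ligand genes are strongly expressed in BEST4 cells, an absorptive type that also carries OTOP2 and CA7. Here OTOP2, CA7 and SPIB were under 1 CPM in both libraries and BEST4 stood at 2.03 CPM in CNT and 1.10 in 3CK. The 5 highest cells for either ligand held at most 1 BEST4 UMI and no OTOP2 or CA7 UMI. Over all epithelial cells the 9 genes of the BEST4-cell list, which include both ligands, summed to 262 CPM in CNT and 487 in 3CK. Most of that sum was HES4, a transcription factor gene, at 209 and 470 CPM. OTOP3 stood at 3.90 and 0.353 CPM and MEIS1 at 12.9 and 5.10 CPM.

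**Figure D2:**
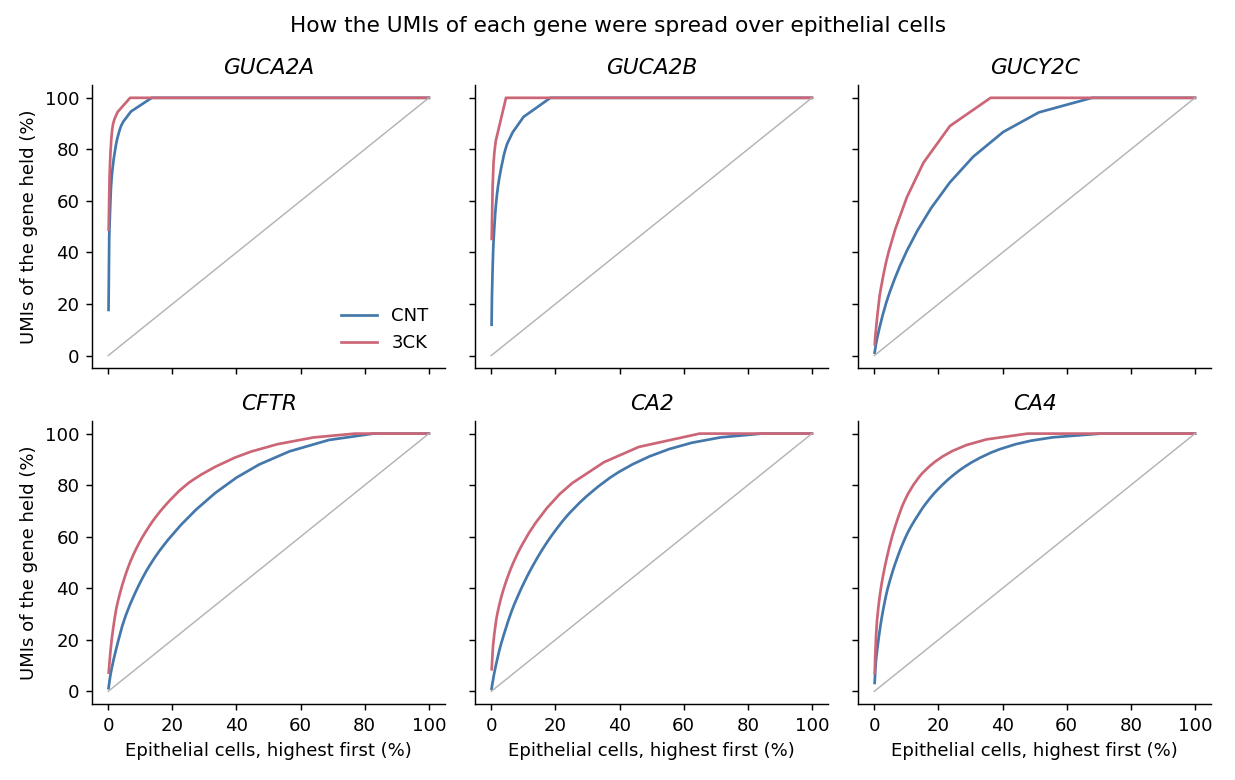
Percentage of a gene's UMIs held by the given percentage of epithelial cells, counted from the cell with the most UMIs, for CNT (blue) and 3CK (red), with the grey diagonal marking equal UMIs in every cell. The GUCA2A and GUCA2B curves climb almost vertically because few cells hold most UMIs, GUCY2C, CFTR, CA2 and CA4 are spread more widely, and each 3CK curve lies above its CNT curve.

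The receptor gene was spread over far more cells and was lower in 3CK in every range with at least 30 cells in both libraries. GUCY2C gave 2746 UMIs in CNT, or 40.2 CPM (38.7 to 41.7), and 831 UMIs in 3CK, or 12.2 CPM (11.4 to 13.1), a log2 ratio of -1.72 (-1.83 to -1.61). Before thinning, 67.8% of CNT cells and 36.3% of 3CK cells held a UMI, although the 3CK cells were deeper. After thinning the shares were 30.2% (27.3% to 33.3%) and 12.3% (9.96% to 14.9%), a difference of -17.9 points (-21.7 to -14.1). The 5 highest cells held 4.52% and 12.5% of the UMIs, so no small set of cells set the level. The highest CNT cell, with 31 UMIs, carried 581 UMIs of the enteroendocrine gene CHGA. Only 4 CNT cells had at least 5 CHGA and CHGB UMIs per 10000, and they held 39 of the 2746 GUCY2C UMIs.

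CFTR did not share the lower summed levels of the ligand genes and of the receptor gene GUCY2C. It gave 5207 UMIs in CNT, or 76.2 CPM (74.1 to 78.3), and 6097 UMIs in 3CK, or 89.6 CPM (87.3 to 91.9), a log2 ratio of 0.23 (0.18 to 0.29). The share of cells pointed the other way. After thinning, a CFTR UMI was present in 43.8% of the cells in CNT (40.6% to 47.0%) and in 36.7% in 3CK (33.1% to 40.3%), a difference of -7.12 points (-11.8 to -2.35). The median cell stood at 45.8 CPM in CNT and 31.6 in 3CK. A higher sum with fewer positive cells means that the 3CK UMIs were more concentrated. The highest 10% of cells held 42.3% of CFTR UMIs in CNT and 58.5% in 3CK, and 1 3CK cell held 443 UMIs, 7.27% of the library's total, against a maximum of 64 in CNT. Without the 5 highest cells the log2 ratio was 0.07.

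The CFTR difference also depended on which epithelial cells were compared. In cells with at least 100 TTR UMIs per 10000, CFTR was lower in 3CK, at 74.0 CPM in CNT and 56.1 in 3CK (log2 ratio -0.40, -0.47 to -0.32). In cells with 10 to under 100 it was higher, at 112 and 139 CPM (0.31, 0.19 to 0.43). Only 109 CNT cells but 293 3CK cells lay in the latter range, and CFTR was higher there than in the TTR-rich cells of either library. These are ranges of 1 gene and not cell types: 128 CNT and 259 3CK cells lay within 2-fold of the value of 100.

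CFTR RNA was highest in barcodes rich in MALAT1, a long RNA kept in the nucleus. In CNT the CFTR level was 52.0 CPM in 707 cells with under 50 MALAT1 UMIs per 10000 and 300 CPM in 39 cells with at least 400. In 3CK it was 49.5 CPM in 487 cells and 244 CPM in 57 cells. Across the same ranges the median share of ribosomal protein UMIs went from 15.6% to 1.73% in CNT and from 13.8% to 1.62% in 3CK. The MALAT1-rich barcodes thus held few ribosomal protein transcripts. Between the same ranges the median mitochondrial share went from 2.27% to 5.83% in CNT and from 1.95% to 6.48% in 3CK. Median depth went from 72271 to 26968 UMIs in CNT and from 105311 to 52291 UMIs in 3CK. Cells with at least 50 MALAT1 UMIs per 10000 made up 25.03% of CNT and 32.1% of 3CK epithelial cells. In the cells under 50, the log2 ratio of CFTR was -0.070 (-0.15 to 0.01), and in those at 50 or more together it was 0.32 (0.25 to 0.40). Within the latter, CFTR was higher in 3CK in 1 of 4 ranges. The log2 ratio was -0.06 (-0.23 to 0.12) at 50 to 100, -0.11 (-0.26 to 0.03) at 100 to 200, 0.85 (0.71 to 0.99) at 200 to 400 and -0.30 (-0.48 to -0.12) at 400 or more. The range with the higher level held the 3CK cell with 443 of its 1549 UMIs. Without the 2 highest cells of each library the log2 ratio of that range was 0.38 (0.23 to 0.54). The same step gave -0.13 (-0.21 to -0.05) under 50 and 0.15 (0.07 to 0.23) at 50 or more together. It gave -0.38 (-0.58 to -0.18) at 50 to 100 and -0.46 (-0.63 to -0.29) at 100 to 200. At 400 or more it gave -0.28 (-0.49 to -0.07). The ranges of TTR and MALAT1 were not independent. Cells with 10 to under 100 TTR UMIs per 10000 stood at 16120 MALAT1 CPM in CNT and 10504 in 3CK. The TTR-rich cells stood at 3192 and 2630 CPM. The CFTR differences over TTR and over MALAT1 were not separated. The part of MALAT1-rich barcodes in the CFTR difference was not tested beyond these values.

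The other genes did not follow MALAT1 in the same way. GUCY2C was also higher with more MALAT1 in each library, going from 33.0 to 110 CPM in CNT and from 7.82 to 48.1 CPM in 3CK between the lowest and the highest range, and its log2 ratio lay between -2.08 and -1.19 in the 5 ranges. CA2 went the other way, from 120 to 38.6 CPM in CNT and from 41.2 to 15.8 CPM in 3CK, and was lower in 3CK in all 5 ranges. CA4 went from 151 to 28.8 CPM in CNT. Its log2 ratio was -1.52 (-1.59 to -1.46) in cells under 50 and -0.21 (-0.32 to -0.10) in cells at 50 or more, and between 100 and 200 it was 0.39 (0.23 to 0.55). In that last range 2 of 60 3CK cells held 287 and 150 of the 674 UMIs, and without the 2 highest cells of each library the log2 ratio was -0.56 (-0.80 to -0.33). The same step gave -1.68 (-1.75 to -1.61) in cells under 50 and -0.54 (-0.66 to -0.41) in cells at 50 or more, and the gap between these ranges was not tested.

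**Figure D3:**
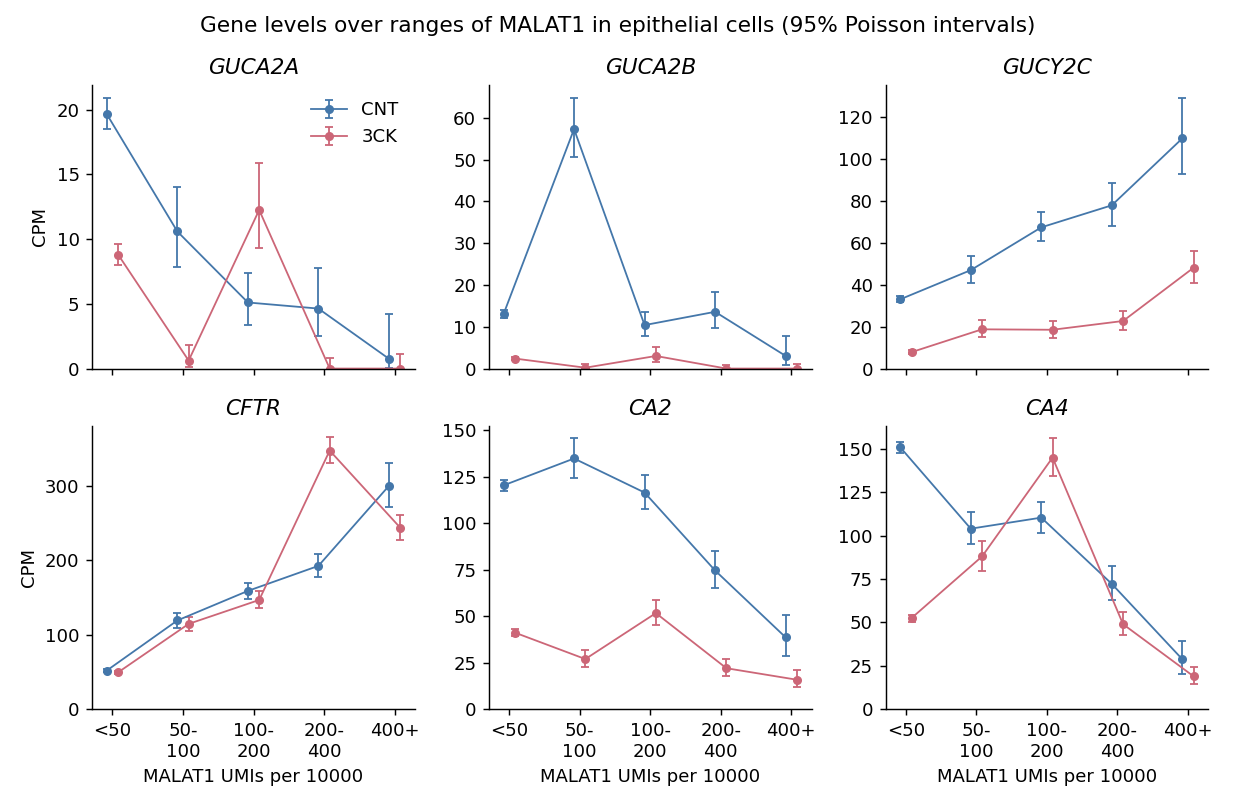
CPM of 6 genes over 5 ranges of MALAT1 (UMIs per 10000) in epithelial cells of CNT (blue) and 3CK (red), with 95% Poisson intervals. CFTR and GUCY2C were highest in MALAT1-rich cells, GUCY2C and CA2 were lower in 3CK in each range, and the GUCA2A point of 3CK at 100 to 200 rests on 57 UMIs, 50 of them in 1 cell, as the CA4 point rests on 674 UMIs, 287 and 150 of them in 2 cells.

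The carbonic anhydrase genes CA2 and CA4 were lower in 3CK. CA2, the cytosolic enzyme, gave 8021 UMIs in CNT, or 117 CPM (115 to 120), and 2613 UMIs in 3CK, or 38.4 CPM (36.9 to 39.9), a log2 ratio of -1.61 (-1.68 to -1.55). Its thinned share was 51.6% in CNT (48.4% to 54.9%) and 19.4% in 3CK (16.6% to 22.5%), a difference of -32.3 points (-36.4 to -27.8). CA4, the enzyme anchored on the outer face of the apical membrane, gave 9479 UMIs in CNT, or 139 CPM (136 to 141), and 4050 UMIs in 3CK, or 59.5 CPM (57.7 to 61.4), a log2 ratio of -1.22 (-1.27 to -1.17). Its thinned share was 41.4% (38.2% to 44.6%) and 21.5% (18.5% to 24.7%), a difference of -19.9 points (-24.1 to -15.5). For CA2 the level and the share both fell short of CNT by more than 2-fold, and for CA4 the share differed by slightly less than 2-fold. CA4 was lower by less than 2-fold in cells with at least 5 EPCAM UMIs per 10000, at a log2 ratio of -0.84, and in TTR-rich cells, at -0.92, or -1.06 there without the 2 highest cells of each library.

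CA1, a cytosolic enzyme known as a marker of surface colonocytes, was barely detected. It lies at chr8:85327608-85379014 on the minus strand, near CA2 at chr8:85463968-85481493 on the plus strand. It gave 45 UMIs in CNT, or 0.658 CPM (0.480 to 0.881), and 98 UMIs in 3CK, or 1.44 CPM (1.17 to 1.75), a log2 ratio of 1.13 (0.61 to 1.67). Collagen cells, with at least 5 collagen UMIs and under 2 EPCAM UMIs per 10000, stood at 1.92 CPM in CNT and 1.99 in 3CK. Their thinned shares of cells with a CA1 UMI, 3.28% of 335 cells and 4.59% of 109, were above those of the epithelial cells, 1.59% and 2.37%. The epithelial CA1 values were therefore no higher than those of the collagen cells.

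AQP8, a water channel of surface colonocytes, gave 5 UMIs (CNT) and 8 UMIs (3CK), or 0.0731 CPM (0.0237 to 0.171) and 0.118 CPM (0.0507 to 0.232). A difference was not detectable at this depth. KCNQ1 gave 149 UMIs in CNT, or 2.18 CPM (1.84 to 2.56), and 100 in 3CK, or 1.47 CPM (1.20 to 1.79), a log2 ratio of -0.57 (-0.95 to -0.19). Its thinned shares, 1.91% and 1.26%, differed by -0.65 points (-1.89 to 0.66). KCNQ1OT1, a long RNA transcribed antisense within KCNQ1, stood at 33.5 CPM in CNT and 14.03 in 3CK. The sources used here do not give whether the counting used strand, and the KCNQ1 count cannot be told apart from KCNQ1OT1 where they overlap. CFTR-AS1, which overlaps CFTR, gave 3 and 4 UMIs.

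The collagen cells gave a level to read the epithelial shares against, although the 8 epithelial markers summed to 9179 CPM in those of CNT and 11676 CPM in those of 3CK. Their median depth was 52449 UMIs in CNT and 77791 in 3CK. GUCA2A was at 4 and 0 UMIs there and GUCA2B at 2 and 0, and no thinned collagen cell held a GUCA2A UMI (0 of 335 and 0 of 109), which at 3 counts of the total allows a share of cells with a UMI of up to 0.896% in CNT and 2.75% in 3CK. The thinned CNT shares were 0.896% for GUCY2C, 3.58% for CA2 and 2.69% for CA4, all far under the epithelial shares. CFTR was the exception in CNT, with a UMI in 13.1% of thinned collagen cells (9.71% to 17.2%) against 0.917% in 3CK (0.0232% to 5.01%). CFTR was also high in barcodes with neither EPCAM nor collagen above the limits, at 260 CPM in 110 CNT cells and 184 CPM in 156 3CK cells. Just outside the EPCAM limit, at 1 to under 2 UMIs per 10000, CFTR stood at 299 and 363 CPM, and just inside it, at 2 to under 3, at 134 and 140 CPM. In CNT this held for GUCY2C too. It stood at 81.8 CPM in barcodes with neither, against 40.2 CPM in epithelial cells. In 3CK these values were 7.5 and 12.2 CPM. Just outside the EPCAM limit GUCY2C stood at 130 CPM in CNT and 16.1 in 3CK, and just inside it at 52.5 and 12.5 CPM.

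Within ranges of TTR, GUCA2B, GUCY2C and CA2 were past 2-fold lower in 3CK in both ranges that held at least 30 cells of each library. In TTR-rich cells their log2 ratios were -2.61, -1.82 and -1.32, and in cells with 10 to under 100 TTR UMIs per 10000 they were -2.73, -1.71 and -1.08. The CA2 ratio was thus smaller in size in each range than over all epithelial cells (-1.61). The interval of the CA2 value of -1.08 was -1.28 to -0.89. Without the 2 highest cells of each library it was -0.84 (-1.06 to -0.62), under 2-fold. The same step gave -3.03 for GUCA2B and -1.71 for GUCY2C in that range. GUCA2A was at 18.0 CPM in CNT and 11.0 in 3CK in TTR-rich cells, and the log2 ratio was -0.71 (-0.88 to -0.55), under 2-fold, against -1.13 (-1.64 to -0.61) in the range of 10 to under 100. The TTR-rich value rested on the 3CK cell with 248 of 410 UMIs, and without the 2 highest cells of each library it was -2.01 (-2.31 to -1.71). CA4 stood at -1.34 (-1.49 to -1.20) in cells with 10 to under 100, and KCNQ1 at 0.21 (-0.71 to 1.24) there and -1.19 (-1.77 to -0.64) in TTR-rich cells. In cells with at least 2 UMIs per 10000 of the enterocyte genes FABP2, RBP2, APOA4, ALPI and SI together, GUCA2A had a log2 ratio of -1.87 (-2.07 to -1.67). In the cells under 2 it was 1.33 (0.93 to 1.75), on 63 CNT and 266 3CK UMIs, of which the single highest 3CK cell held 248.

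The 8 lists of genes from the same pathways held 123 genes, of which 98 reached 1 CPM. Of these, 24 (24.5%) were past 2-fold lower in 3CK and 10 (10.2%) past 2-fold higher, with a median log2 ratio of -0.38, beside 11.8%, 8.89% and 0.01 for all genes. The 98 include the 8 counted genes described above, with 5 of the lower and 1 of the higher genes. The share of lower genes was above that of all genes, and the share of higher genes was near it. By the median of their counted genes, the ligand, aquaporin and basolateral lists lay lowest. The cAMP and sodium absorption lists lay near the median of all genes. A counted gene under 1 CPM in 1 library passed only through the other, where it was higher.

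In the guanylin and cGMP list all 12 genes were counted, and besides the ligands and the receptor 3 of 9 were past 2-fold lower and none higher. The median log2 ratio of the 12 was -1.04. SLC9A3R1, a scaffold that tethers CFTR at the apical membrane, had the highest level, 192 CPM in CNT and 103 in 3CK (-0.90). The related scaffold SLC9A3R2 had the largest log2 ratio, 0.71, and the scaffold PDZD3 the smallest, -3.08. The other lower genes were the scaffold PDZK1, at 31.3 and 4.72 CPM (-2.73), and PRKG1, a cGMP-dependent kinase, at 3.80 and 0.838 CPM (-2.18). PRKG2, the kinase through which cGMP acts on CFTR in gut epithelium, stood at 4.50 and 4.07 CPM (-0.15, -0.39 to 0.09).

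Among apical anion transporters, 11 of 16 genes were counted, 3 past 2-fold lower and 2 higher, with a median of -0.17. The chloride-bicarbonate exchanger SLC26A3 had the smallest ratio, with 451 UMIs in CNT and 52 in 3CK (log2 ratio -3.11, -3.55 to -2.69). The related exchanger SLC26A4 had the largest, with 20 UMIs in CNT and 646 in 3CK, or 0.293 and 9.49 CPM (5.02, 4.38 to 5.74), and 99.4% of tested genes had a lower ratio. SLC26A3 and SLC26A4 thus moved in opposite directions between the libraries. The other lower genes were the sulphate transporter SLC26A2, at 102 and 24.3 CPM (-2.06), and LRRC26, a subunit of potassium channels, at 13.3 and 3.00 CPM (-2.15). CLCA4 was higher, from 0.673 to 1.97 CPM (1.55).

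The basolateral list covers chloride loading, the sodium pump and potassium exit. Of 18 counted genes, 3 were past 2-fold lower and 1 higher, with a median of -0.64. The sodium pump subunit ATP1B1 had the highest level, 532 CPM in CNT and 725 in 3CK (0.45). KCNE2, a partner subunit of KCNQ1, had the smallest ratio, with 324 UMIs in CNT and 3 in 3CK (-6.75, -9.03 to -5.19). KCNE3, the partner of KCNQ1 in colon, stood at 1.71 and 1.04 CPM (-0.71), and SLC12A2, the transporter that loads chloride, at 14.9 and 8.89 CPM (-0.75). The potassium-chloride cotransporter SLC12A7 had the largest ratio, 1.33. KCNMA1 (-2.47) and FXYD3 (-1.34) were the other lower genes.

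Among the carbonic anhydrases, 8 of 15 were counted, with 3 past 2-fold lower and 2 higher. CA3 had the largest ratio, at 21.7 CPM in CNT and 150 in 3CK (2.78, 2.70 to 2.86), opposite to CA2 and CA4. CA12 stood lower, at 3.28 and 1.19 CPM (-1.46). Of the aquaporins, 6 of 14 were counted and 5 were past 2-fold lower, with a median of -2.08. AQP3, the water and glycerol channel, had the highest level and the smallest ratio, 47.6 CPM in CNT and 5.76 in 3CK (-3.05). AQP11 had the largest, -0.23. AQP10, AQP1, AQP7 and AQP4 lay between 1.70 and 3.82 CPM in CNT and between 0.500 and 0.647 CPM in 3CK. They were thus counted only through CNT, where they were higher, and the count and median of the list depend on this limit. Among aquaporins not counted, AQP8, AQP9 and MIP were higher in 3CK and AQP5 lower, on at most 28 UMIs in a library.

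For sodium absorption 9 of 12 genes were counted, 1 past 2-fold lower and 1 higher, with a median of -0.00. PRSS8, a protease that activates the sodium channel ENaC, had the highest level of the list, 102 and 128 CPM. The sodium-proton exchanger SLC9A3 had the largest ratio, 1.73, on 36 and 119 UMIs, and SLC9A2 the smallest, -2.86, on 270 and 37 UMIs. The cAMP list had 20 of 21 genes counted, 2 past 2-fold lower and 4 higher, with a median of -0.08. GNAS, the stimulatory G protein subunit, stood at 1113 and 710 CPM. The higher genes were the adenylyl cyclases ADCY4 (1.82), ADCY7 (1.60) and ADCY9 (1.37) and the phosphodiesterase PDE4B (1.44). The lower genes were the phosphodiesterase PDE3A, from 47.4 to 4.89 CPM (-3.28), and VIPR1, the receptor for vasoactive intestinal peptide (-1.24).

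All 14 gut transcription factors were counted, with 1 past 2-fold lower and a median of -0.31. GATA6 had the highest level, 109 CPM in CNT and 57.6 in 3CK (-0.92), and GATA4 stood at 43.8 and 24.7 CPM (-0.83). FOXA1 had the smallest ratio, from 63.9 to 19.1 CPM (-1.74), and KLF4 the largest, 0.73. The levels of GATA factors say nothing of binding at the promoter stretches shown above.

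**Figure D4:**
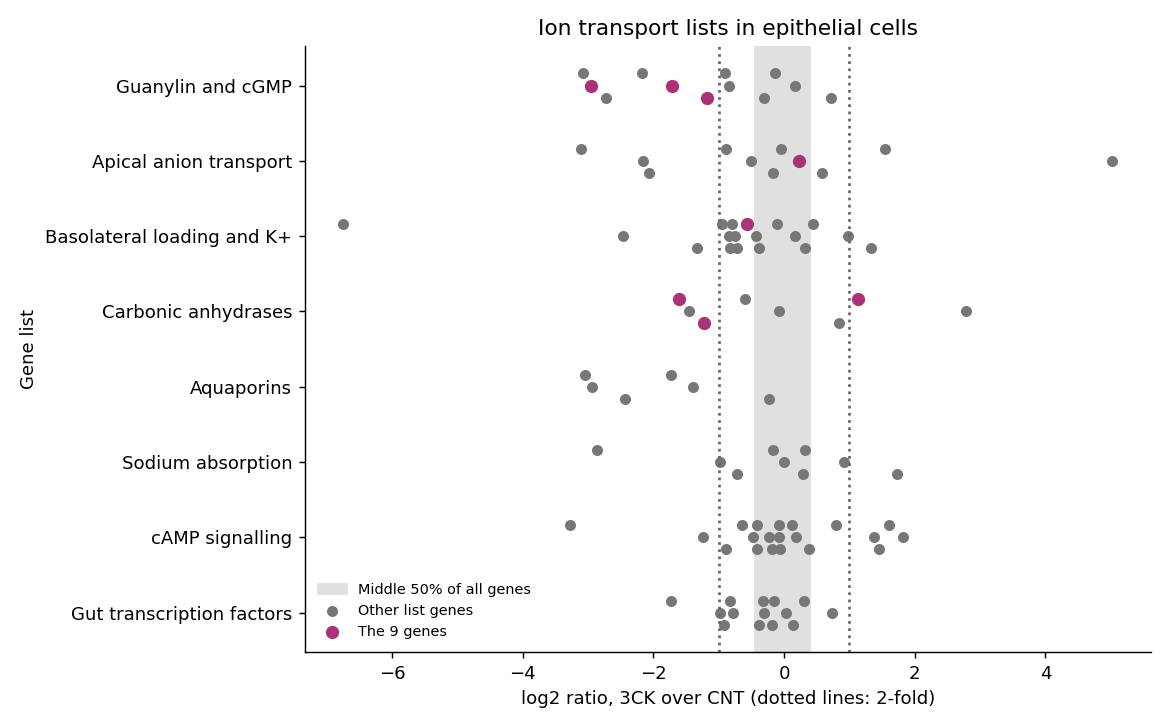
Log2 ratio of 3CK over CNT for the counted genes of 8 lists, with the 9 ion secretion genes in purple, other genes in grey, dotted lines at 2-fold and a grey band over the middle 50% of all tested genes (-0.45 to 0.39). The counted aquaporins all lie below 0, and KCNE2 at -6.75 and SLC26A4 at 5.02 are the extremes.

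Some genes followed a member from cell to cell in both libraries. Likeness was the Pearson correlation of log-transformed UMIs per 10000 over the 943 CNT and the 717 3CK cells, among 15411 genes, and is a description since the cells share a library and differ in depth. For GUCY2C the 5 most alike genes were THRB, HEPH, PCSK5, GOLIM4 and AIG1, with r between 0.45 and 0.52. For CFTR they were MSI2, SNHG14, PTK2, BMPR1A and ANKRD17, with r between 0.48 and 0.55, and MALAT1 itself reached 0.50 in CNT and 0.41 in 3CK. For CA4 they were CEBPA, SELENOP, CD302, GLTPD2 and ASL, with r between 0.31 and 0.37, and for CA2 only SELENOP reached 0.3 in both libraries (0.36 and 0.39). No gene did so for GUCA2A or KCNQ1. Pairs among the 9 genes were given only for those with a UMI in at least 5% of cells of both libraries. CFTR and GUCY2C had r = 0.30 in CNT and 0.10 in 3CK, and CA2 and CA4 had 0.24 and 0.13. Other pairs were higher in 3CK: GUCY2C had 0.11 and 0.27 with KCNQ1, and 0.08 and 0.22 with CA4.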

How the data were processed

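The values deposited by the authors are raw UMI counts for each gene in each barcode, made with Cell Ranger 7.1.0 on GRCh38 per the submitters' processing notes; the annotation is not given in the sources used here. Dissociated cells were captured with 10x Genomics 3′ chemistry, about 8300 loaded per library, per the labels' protocols. Barcodes with at least 500 genes and at most 20% mitochondrial UMIs were kept. The highest Scrublet scores (scanpy 1.11.5) were removed at 0.8% per 1000 barcodes, 52 in CNT and 16 in 3CK, which left 2487 and 1398.

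Counts were summed per library and scaled to CPM. Intervals are exact Poisson for sums, from the exact binomial share for ratios, Clopper-Pearson for shares and Newcombe for differences of shares. They cover counting error only, since the sampling of cells, PCR and culture differences are not in them. Genes that reached 1 CPM in CNT or 3CK were counted, and past 2-fold means a log2 ratio of at least 1 in size. No ratio was formed where a library had under 30 cells in a range. The script recovered known ratios in simulated data that held counting error only.

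The 9 genes, the lists and the ranges were chosen with earlier results of these data known, and the MALAT1 ranges after seeing these values. In each list the genes with the highest level and the largest and smallest ratio were named by rule, as were the 5 genes most alike where r was at least 0.3 in both libraries. Other list genes were named after their values were seen. A few list genes enter the counts but are not reported here by name.

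Alternatives were the barcode filter, doublets, TMM factors (edgeR 4.0.16), another total, equal weight per cell, other limits on EPCAM, collagen, UMIs and CPM, and all kept barcodes. Limits on MALAT1 and leaving out the 5 highest cells, or the 2 highest of a range, were added after seeing the data.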

Additional observations from a re-analysis of the deposited data

Results flagged for a closer look

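CFTR was lower in 3CK in collagen cells, which had under 2 EPCAM UMIs per 10000 but were not free of epithelial markers, at 18.0 CPM in 335 CNT cells and 5.25 CPM in 109 3CK cells (log2 ratio -1.77, -2.23 to -1.35). In epithelial cells the summed level was higher (0.23), so the log2 ratios of the 2 cell groups lay on opposite sides of 0. CFTR was also lower in barcodes with neither EPCAM nor collagen above the limits (-0.50, -0.60 to -0.39). In kept barcodes under 10000 UMIs the log2 ratio was -0.43 (-0.76 to -0.11). Barcodes with both EPCAM and collagen stood at 34.8 CPM in 70 CNT cells and 217 CPM in 13 3CK cells, too few for a ratio. The epithelial direction did not hold throughout: the thinned share of cells differed by -7.12 points (3CK minus CNT), and the log2 ratio was 0.07 without the 5 highest cells, -0.40 in TTR-rich cells and -0.070 with MALAT1 under 50. The difference between the cell groups was not tested, since each condition is 1 library.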

How the results depend on the processing

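The log2 ratios of GUCA2A (-2.42 to -0.78), GUCA2B (-4.24 to -2.29), GUCY2C (-2.08 to -1.64), CA2 (-1.85 to -1.40), CA4 (-1.52 to -0.84) and KCNQ1 (-0.82 to -0.37) kept their sign under the 13 alternatives, and that of CA1 lay between 0.61 and 1.63. GUCA2A was under 2-fold with equal weight per cell and, with CA4, at an EPCAM minimum of 5 (-0.91 and -0.84), which left 3 of the genes past 2-fold lower in place of 5. With MALAT1 under 50, CFTR had a log2 ratio of -0.070, reversed, and elsewhere it lay between 0.05 and 0.41; the cause was not tested. The count of genes past 2-fold higher went from 1 to 0 under equal weight per cell, collagen under 5 UMIs per cell, all kept barcodes, a minimum of 10 CPM and MALAT1 under 50. AQP8 gave from -0.24 to 1.37 on at most 8 epithelial UMIs a library. With a minimum of 10 CPM, which tests fewer genes, 12 list genes were lower and 5 higher (24 and 10 before), and 757 and 789 of 9782 genes (1970 and 1488 before). With no minimum 4339 and 3141 genes passed. Leaving mitochondrial, ribosomal and the top 50 genes out of the total moved the median of all genes by -0.12. No library can be left out and no paired analysis was possible because each group is 1 library.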

Other observations

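PAEP and SFTA2, genes not known for colon and chosen here after their values were seen, lay beside GUCA2A in some cells. The highest GUCA2A cell held 49 PAEP and 14 SFTA2 UMIs in CNT and 9 and 10 in 3CK. Among the next 4 cells, PAEP was at 0 in all 4 of CNT and at 4 UMIs in 1 of 3CK, and SFTA2 was at 1, 12, 2 and 1 in CNT and at 0 in 3CK. Over all epithelial cells the correlation of GUCA2A with PAEP was 0.37 in CNT and 0.19 in 3CK, and with SFTA2 0.30 and 0.20. These are descriptions over cells of the same library.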
